A study of Homo sapiens with 8 samples.

Results

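Gene deserts are long stretches of a chromosome without protein-coding genes. Here they were taken as the places on chromosomes 1 to 22 that lay 500 kb or more from every protein-coding gene body of RefSeq (hg38) and 5 Mb or more from the chromosome ends. The last 102.0 Mb of chromosome 1, the last 62.5 Mb of chromosome 5, the last 46.1 Mb of chromosome 8 and all of chromosomes 16, 17, 19, 20 and 22 were left out. The rule uses positions alone and no measured value, though it was chosen with earlier results of these data known. In the 2162 Mb that remained, on 17 chromosomes with 14660 protein-coding genes, they formed 254 blocks with a total length of 305.6 Mb (14.1% of the area). Their median length was 605 kb, and 86 were 1 Mb or longer. The 8 peak lists together held 65752 peaks in deserts, of 1153532 peaks on chromosomes 1 to 22 and X. The rest of the same area held 678199.

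The cells were MCF10A, a non-tumorigenic line of human breast epithelium. The products of CBX5 (HP1α, here HP1a) and CBX1 (HP1β, here HP1b) were each mapped by chromatin immunoprecipitation with sequencing after formaldehyde cross-linking, in 4 groups of 2 libraries. HP1a was mapped in wild-type cells and under knockdown of HP1b, and HP1b in wild-type cells and under knockdown of HP1a. The wild-type cells had no treatment, every group was the same cell line, and how knockdown was done is not given in the sources used here. Libraries of a group are numbered 1 and 2 and are not said to come from separate cultures, so spreads and p-values measure only the difference between such libraries. The deposited lists hold peaks and no reads, so the level of CBX1 or CBX5 in the knockdown could not be checked and the sequencing depth is unknown.

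HP1 proteins bind a methyl mark on the tail of histone H3 through their chromodomain, pair through a second domain, and are known for packing repeats and silent genes into heterochromatin. Gene deserts are rich in old repeats and poor in CG dinucleotides, and many lie at the nuclear lamina. Some hold distant enhancers of the developmental genes beside them. A peak is a place where the caller found more ChIP reads than in the local background, and a place without one is a place where none was listed.

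Non-coding transcripts that start in deserts have promoter windows to which peaks could be matched. RefSeq (GRCh38.p14) held 530 promoter windows there, each from 250 bases before to 50 bases after a start, and all belonged to non-coding genes. Their median GC content was 38.3%, against 58.7% over all 34961 windows on chromosomes 1 to 22 and X. The motif CG, which reads the same on both strands, was missing from 17.7% of the desert windows and from 3.94% of all windows. The 3 windows below are shown because peaks met them in several libraries, LOC105369513 also because it lies in the block that rose furthest for both proteins: LOC101929446 in 5, LOC105374391 in 4 and LOC105369513 in 3. Capitals mark CG.
LOC105369513, chr11:116081010-116081309, minus strand: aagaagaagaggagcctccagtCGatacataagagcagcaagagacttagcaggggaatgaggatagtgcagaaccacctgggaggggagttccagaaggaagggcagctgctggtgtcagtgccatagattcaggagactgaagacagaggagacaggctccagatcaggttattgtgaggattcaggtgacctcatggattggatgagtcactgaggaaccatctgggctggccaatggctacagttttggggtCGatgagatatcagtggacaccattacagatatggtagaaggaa
LOC101929446, chr9:11834973-11835272, minus strand: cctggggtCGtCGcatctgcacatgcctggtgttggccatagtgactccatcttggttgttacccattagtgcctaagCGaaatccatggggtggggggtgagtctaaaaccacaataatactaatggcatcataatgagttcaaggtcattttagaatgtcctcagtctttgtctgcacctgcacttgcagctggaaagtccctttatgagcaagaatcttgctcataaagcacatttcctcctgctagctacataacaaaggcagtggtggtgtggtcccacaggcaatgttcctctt
LOC105374391, chr4:33467292-33467591, plus strand: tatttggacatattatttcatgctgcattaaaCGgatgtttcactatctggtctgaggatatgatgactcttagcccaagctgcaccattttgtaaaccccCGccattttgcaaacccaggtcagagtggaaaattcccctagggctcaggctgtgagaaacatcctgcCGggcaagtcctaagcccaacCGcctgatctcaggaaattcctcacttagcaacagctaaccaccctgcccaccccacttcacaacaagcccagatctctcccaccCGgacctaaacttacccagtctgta

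The window of LOC101929446, between PTPRD and TYRP1, holds 3 CG and had a peak in wild-type HP1a library 1 (2.97), in library 2 of HP1a in the HP1b knockdown (3.23), in both wild-type HP1b libraries (3.30 and 3.41) and in library 2 of HP1b in the HP1a knockdown (2.41). The window of LOC105369513, between CADM1 and BUD13, had a peak in wild-type HP1b library 2 (3.04) and in both HP1b libraries of the HP1a knockdown (2.97 and 3.43). That of LOC105374391, between PCDH7 and ARAP2, was listed in all 4 HP1b libraries (2.66 and 3.53 in wild type, 2.72 and 3.52 in the knockdown) and in no HP1a library. Fold enrichment is the authors' value for each peak.

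Most desert promoters met no peak. Of the 530 windows, 409 met none in any library, 77 met one in 1 library, 26 in 2, 11 in 3, 2 in 4 and 5 in 5. Those met in 5 include windows not shown, of LINC01666 and LOC105372747 on chromosome 21, which had a peak in all 4 HP1b libraries and in 1 HP1a library. A peak met 3.58 and 2.64% of them in the wild-type HP1a libraries and 7.36 and 8.30% in the wild-type HP1b libraries. Over all 34961 windows the shares were lower, 2.57 and 2.04% for HP1a and 4.74 and 5.45% for HP1b. Windows met in both libraries of a group numbered 3 for wild-type HP1a (median GC 50.7%), 0 for HP1a in the HP1b knockdown, 12 for wild-type HP1b (48%) and 12 for HP1b in the HP1a knockdown (49.8%).

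Among 30 miRNA hairpins of RefSeq in deserts, peaks met 4. Only those of miR-1269a, in both wild-type HP1b libraries, and of miR-7977, in both HP1b libraries of the HP1a knockdown, were met in more than 1 library. Their mature forms are shown with the seed (bases 2 to 8, which pairs with targets) in capitals, and the 6 mature forms of the 4 hairpins have 6 different seeds.
hsa-miR-1269a, chr4:66276890-66276911, plus strand, between EPHA5 and CENPC: cUGGACUGagccgugcuacugg
hsa-miR-7977, chr3:176515103-176515120, plus strand, between NAALADL2 and TBL1XR1: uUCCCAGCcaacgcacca

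The other non-coding genes of deserts were mostly long non-coding RNAs and pseudogenes. Of 1370 non-coding genes, 715 were lncRNAs and 545 pseudogenes. Bodies of lncRNAs made up 14.1% of desert length (in blocks without a long peak-free stretch, defined below). They were covered by wild-type HP1a peaks to 1.59 and 1.64% and by wild-type HP1b peaks to 4.64 and 4.16%. Desert outside lncRNAs was covered to 1.55 and 1.56% by HP1a and to 4.51 and 4.10% by HP1b. The share inside lncRNA bodies was slightly higher in 7 of the 8 libraries, and library 1 of HP1a in the HP1b knockdown was the exception (0.151 against 0.162%). No test was made of it.

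Deserts carried fewer peak bases than the rest of the same area in every library. Peaks in deserts numbered 6691 and 6358 for wild-type HP1a, 690 and 784 for HP1a in the HP1b knockdown, 13760 and 13173 for wild-type HP1b, and 11358 and 12938 for HP1b in the HP1a knockdown. In the same order they held 7.32 and 8.27%, 6.29 and 7.51%, 8.66 and 8.11%, and 10.7 and 8.47% of the area's peak bases, on 14.1% of its length. The covered share of deserts divided by that of the rest ranged from 0.408 to 0.730 (geometric mean 0.535, below 1 in 8 of 8 libraries, exact two-sided sign-flip permutation p 0.0078125, the smallest that 8 libraries can give).

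A large part of that ratio came with places where no library had a peak. In 17 blocks, mostly at centromeres and on the short arms of acrocentric chromosomes, a stretch of 1 Mb or more had none. These blocks made up 118.8 Mb, of which 107.3 Mb were in such peak-free ground, and they included the 5 longest blocks. The longest lay on chromosome 1, from LINC02798, which the table counts as protein-coding, to H3-7 (chr1:121963129-143402386, 21.4 Mb), and held between 0 and 22 peaks per library. Without the 17 blocks the ratio was 0.758 and 0.865 for wild-type HP1a, 0.624 and 0.764 for HP1a in the HP1b knockdown, 0.907 and 0.842 for wild-type HP1b, and 1.14 and 0.871 for HP1b in the HP1a knockdown (geometric mean 0.836, below 1 in 7 of 8 libraries, exact permutation p 0.0234). A stretch of 1083 kb without any peak also lay away from a centromere, on the short arm of chromosome 9 (chr9:22435407-23517920), where it takes in DMRTA1 and a desert block before ELAVL2. Whether reads could be placed in the peak-free ground was not tested.

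The other 237 blocks, with a total length of 186.8 Mb and a median of 551 kb, were covered to a like degree on both sides of 1 Mb in wild type. Wild-type HP1a peaks covered 1.53 and 1.54% of the ground 500 kb to 1 Mb from genes and 1.62 and 1.65% of the ground 1 Mb and over. Inside gene bodies the same libraries covered 1.84 and 1.56%, and 1 to 50 kb from genes 2.54 and 2.17%. Wild-type HP1b covered 4.50 and 4.03% at 500 kb to 1 Mb, 4.60 and 4.32% at 1 Mb and over, 4.11 and 4.19% in gene bodies and 6.19 and 6.06% at 1 to 50 kb. The ground next to genes was thus the most covered for both proteins in wild type, and the deserts were near gene bodies. For HP1a the ground 500 kb to 1 Mb lay under gene bodies in both libraries, narrowly in library 2. HP1a at 1 Mb and over lay within the range of its gene bodies. For HP1b the ground 500 kb to 1 Mb overlapped gene bodies, and the ground 1 Mb and over lay above them in both libraries. HP1a in the HP1b knockdown covered 0.213 and 0.195% in gene bodies, 0.167 and 0.211% at 500 kb to 1 Mb and 0.142 and 0.142% at 1 Mb and over. Only the ground 1 Mb and over was less covered than gene bodies in both of these libraries. Across the distance that defined the deserts the changes were small and went both ways. From 450 to 500 kb to 500 to 550 kb wild-type HP1a went from 1.48 and 1.40% to 1.49 and 1.55%, and wild-type HP1b from 4.42 and 4.12% to 4.50 and 3.89%. HP1a in the HP1b knockdown went from 0.187 and 0.222% to 0.205 and 0.235%, and HP1b in the HP1a knockdown from 4.38 and 4.78% to 4.11 and 4.85%.

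**Figure D1:**
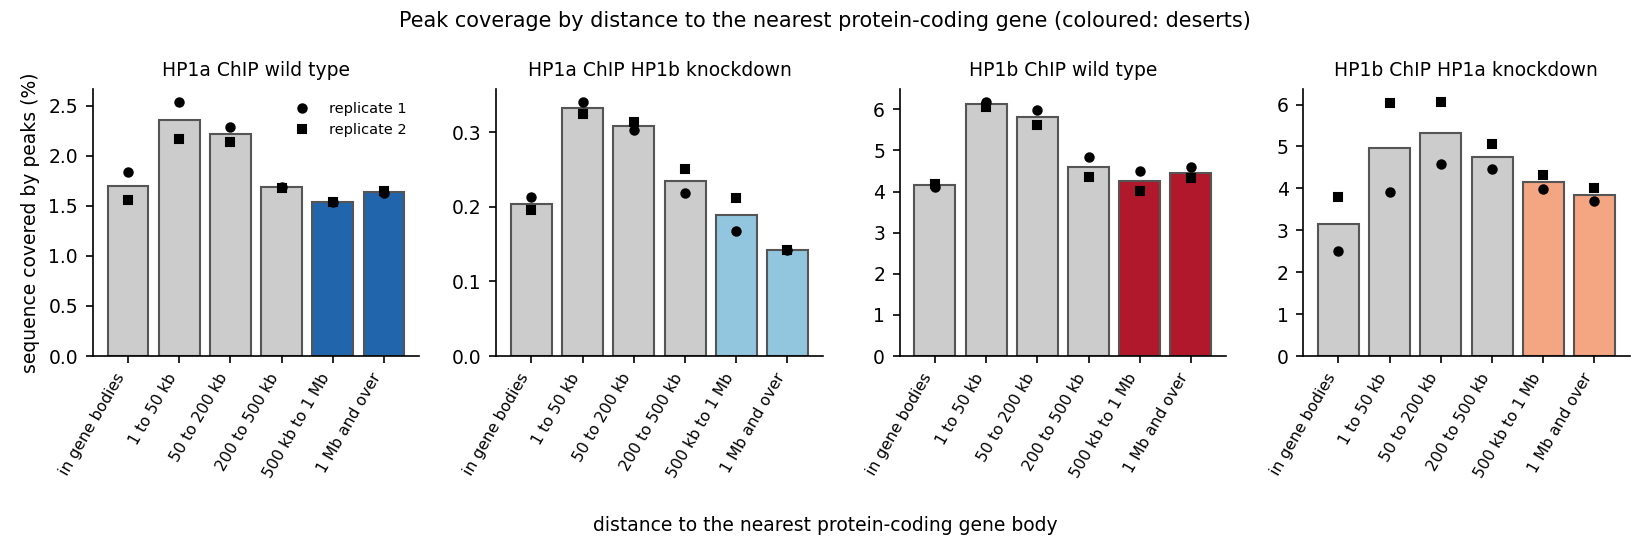
Percent of bases covered by peaks in each library, by distance from the nearest protein-coding gene body, without the 17 blocks that hold a peak-free stretch of 1 Mb (bars are means, points libraries, and each panel has its own scale). Wild-type HP1a falls from 2.54 and 2.17% at 1 to 50 kb to 1.53 and 1.54% at 500 kb to 1 Mb, and HP1a in the HP1b knockdown stays at or below 0.341% in all 6 classes.

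Desert peaks were narrower and had a slightly higher fold than peaks in the rest of the area. Their median width was 342 and 385 bases for wild-type HP1a, against 422 and 433 elsewhere, and 510 and 484 bases for wild-type HP1b, against 522 and 518. The ratio of median widths was 0.915 on average and under 1 in 8 of 8 libraries (exact sign-flip permutation p 0.0078125). The ratio of median folds was 1.02 and over 1 in 8 of 8 (the same p). Peaks of 4 kb or wider were rare: 0 and 1 in the wild-type HP1a libraries, 0 and 0 for HP1a in the HP1b knockdown, 16 and 14 for wild-type HP1b, and 24 and 42 for HP1b in the HP1a knockdown. Their number did not overlap between the HP1b groups, at an exact permutation p of 0.333, the smallest that 2 against 2 libraries allow. The share of peaks this wide was 2.41-fold higher in the HP1a knockdown in deserts and 2.60-fold higher in the rest of the area, so it was not particular to deserts.

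Peaks in deserts were met by the other replicate more often than peaks elsewhere in 3 of the 4 groups. For wild-type HP1a, 20.8 and 21.8% of desert peaks overlapped a peak of the other library by 1 base or more, against 15.1 and 17.3% elsewhere. For wild-type HP1b the shares were 40.7 and 42.5% against 32.2 and 32.6%, and for HP1b in the HP1a knockdown 46.6 and 40.6% against 44.3 and 30.4%. For HP1a in the HP1b knockdown they were 3.91 and 3.44% against 4.30 and 4.40%. Fewer peaks leave fewer partners, and the 4 groups differ in the number of peaks, so the shares are not compared between groups. With an overlap of 50% the group means in deserts were 13.2, 28.2, 28.8 and 1.84% in the same order.

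**Figure D2:**
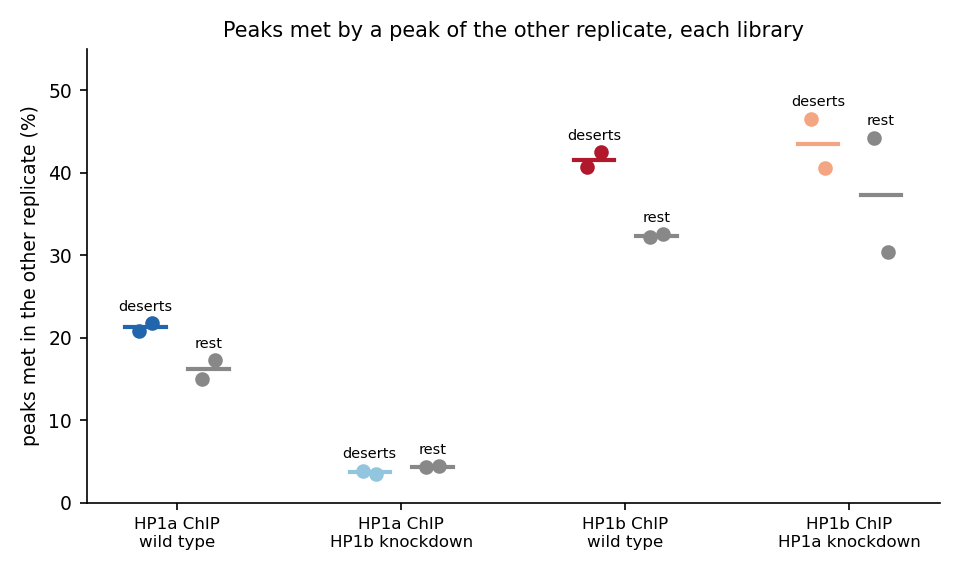
Percent of each library's peaks met by a peak of the other library of its group, in deserts and in the rest of the area. Desert values lie above those of the rest in both libraries of wild-type HP1a, wild-type HP1b and HP1b in the HP1a knockdown, and below them, all under 5%, for HP1a in the HP1b knockdown.

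The desert regions that both libraries of a group shared numbered 1380 for wild-type HP1a, 27 for HP1a in the HP1b knockdown, 5425 for wild-type HP1b and 5056 for HP1b in the HP1a knockdown. Of the 1380 wild-type HP1a regions, 1116 (80.9%) met a wild-type HP1b peak in at least 1 library and 1000 (72.5%) met an HP1b peak of the HP1a knockdown. By single peaks, 56.8 and 59.9% of wild-type HP1a desert peaks met a wild-type HP1b peak, against 46.3 and 48.5% of those elsewhere. With HP1a knocked down, HP1b peaks met 51.9 and 52.7% of them, against 35.3 and 36.2% elsewhere.

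Ranked by the lower of the 2 libraries' folds, the highest shared region of wild-type HP1a was chr21:8408966-8409146, with 7.58 and 6.82. It lies in a block on the short arm of chromosome 21 that holds 8 ribosomal RNA genes of a family with many copies, among them RNA45SN1, though the region itself meets no listed non-coding gene. Which copy its reads came from was not tested. The wild-type HP1b libraries listed it at 6.79 and 6.08 and the HP1b libraries of the HP1a knockdown at 0 and 3.50. For wild-type HP1b the highest region lay in the same block (chr21:8409921-8410100, 6.57 and 6.94). For HP1b in the HP1a knockdown it was chr6:113069566-113069930, between RFPL4B and MARCKS (4.23 and 4.42).

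Peaks of all 8 libraries met at 5 of the 1380 wild-type HP1a regions. They included chr1:30091609-30092772 (PTPRU to MATN1), chr6:164561773-164563058 (LOC124901498 to C6orf118), chr7:68936329-68938700 (SPDYE21 to AUTS2) and chr13:18594763-18597707 (BAGE5 to TUBA3C). The folds of these 4 ran from 2.86 to 3.96, none of them high for these lists, in which the top desert fold per library was between 5.19 and 7.58.

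The blocks differed much more from each other than the replicates did. Each block's relative density, the covered share of the block divided by the covered share of chromosomes 1 to 22 and X in the same library, is 1 where a block is covered like the genome as a whole. Over 69 blocks of 1 Mb or more without a long peak-free stretch, group means ran from 0.0966 to 3.71 for wild-type HP1a (median 0.670, 55 below 1) and from 0.132 to 4.77 for wild-type HP1b (median 0.756, 52 below 1). For HP1a in the HP1b knockdown they ran from 0.0258 to 12.2 (median 0.369, 67 below 1), and for HP1b in the HP1a knockdown from 0.0702 to 8.31 (median 0.800, 56 below 1). Across these 69 blocks the 2 wild-type HP1a libraries gave Spearman's rho 0.931 and the 2 wild-type HP1b libraries 0.964. The 2 HP1a libraries of the HP1b knockdown gave 0.222 (Pearson's r 0.974, which rests on the highest blocks). These describe blocks on shared ground, with no test.

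The same few blocks led both proteins in wild type. SPDYE21 to AUTS2 on chromosome 7 was highest, with relative densities of 3.36 and 4.06 for HP1a and 4.95 and 4.58 for HP1b. AUTS2 is a neurodevelopmental gene whose protein takes part in a Polycomb complex. It was followed by CD83 to JARID2 on chromosome 6 (2.57 and 2.47 for HP1a, 2.42 and 2.82 for HP1b) and by HS6ST1 to RAB6C on chromosome 2 (1.81 and 2.79, and 2.43 and 1.99). JARID2 is a cofactor of the Polycomb repressive complex that methylates histone H3. KLF4 to ACTL7B on chromosome 9 was also among the 5 highest for both, IGFBP3 to TNS3 on chromosome 7 for HP1a, and VRK1 to BCL11B on chromosome 14 for HP1b. Neighbours in these orders overlap in their libraries except for the first place.

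The first comparison asks what became of HP1a in deserts when HP1b was knocked down. HP1a peaks in deserts fell from 6524.5 ± 235 to 737 ± 66.5 (SD, n = 2 each), 8.85-fold fewer, with no overlap (exact permutation p 0.333, the smallest possible). The covered share fell 8.63-fold in deserts and 7.59-fold in the rest of the area, which the spread does not separate: the deserts' part of the area's peak bases went from 7.80 ± 0.674 to 6.90 ± 0.863%, and the libraries overlapped (exact permutation p 0.667). Blocks with no HP1a peak in a library went from 20 and 22 to 82 and 73. Of 215 blocks tested, 202 (94.0%) had a lower covered share in both knockdown libraries than in both wild-type libraries, near the 96.1% of all 3074 segments tested. In 1, between CADM1 and BUD13, the share was higher in both (0.488% of all segments). In 1751 windows of 100 kb, 49 had no HP1a peak in either wild-type library and 1011 had none in either knockdown library. The whole lists also shrank, 6.42-fold, so the tests of single blocks use relative density, which divides by the total coverage of each list.

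Relative to the rest of the genome, HP1a fell in 18 of 215 desert blocks (8.37%) and rose in 4 (1.86%) by limma at an adjusted p under 0.05. Across all 3074 segments, which also tile the rest of the chromosomes at 1 Mb, 5.79% fell and 5.86% rose. The share of falling blocks was above that background and the share of rising blocks under it, with no test of either difference. Of the 18 falls, 10 had no peak in either knockdown library and cannot be told from a short list, as set out below. How many falls over all segments are of that kind is not given here. The higher share of falls is therefore not read as a trait of deserts. The units differ, since blocks start at 100 kb and the tiles are 1 Mb. In fixed bins of 1 Mb, 14 of 175 desert bins fell and 1 rose, against 210 and 209 of all 2878. The share of falls was then closer to the background. The median log2 change was -0.48 over the desert blocks and -0.35 over all segments. Without the scaling by list length these medians were both -2.59. Medians include blocks listed at 0 in the knockdown, whose fitted value depends on the added constant.

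**Figure D3:**
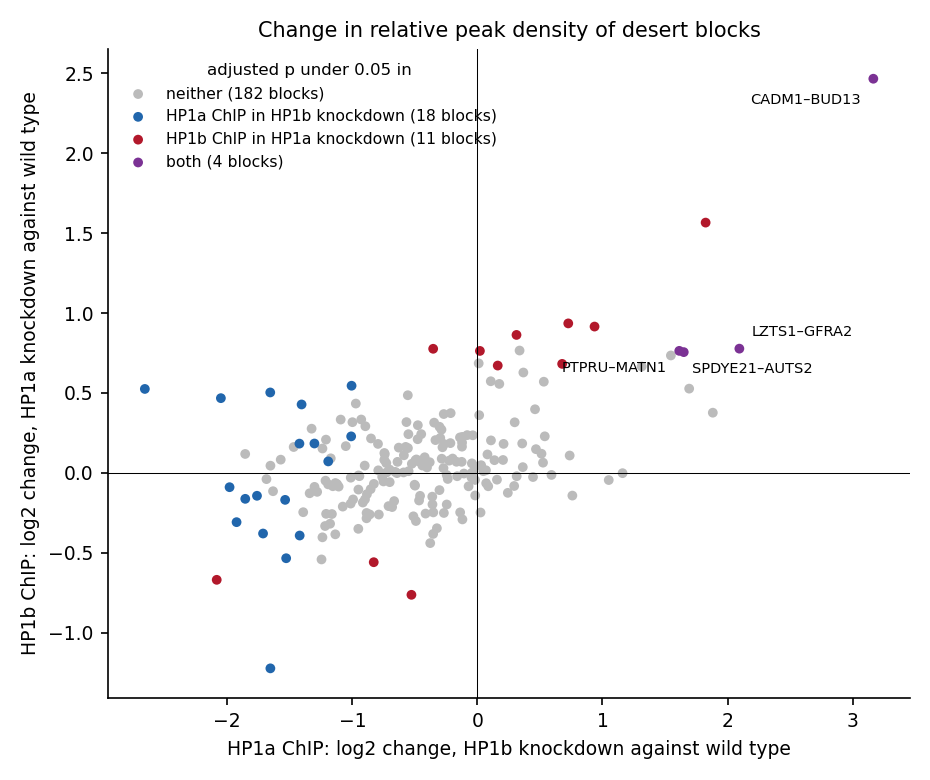
Log2 change in relative density of the 215 desert blocks tested in both knockdown comparisons, for HP1a in the HP1b knockdown (horizontal axis) and HP1b in the HP1a knockdown (vertical axis), coloured by the comparison in which the adjusted p was under 0.05. The 4 blocks past it in both lie at the upper right, and 18 blocks past it for HP1a alone lie left of 0.

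Of the 18 blocks that fell, 10 had no HP1a peak in either knockdown library and 2 had a peak in exactly 1. The other 6 fell by 1.42 to 1.98 on the log2 scale. The 10 passed the filter through wild type alone, and both of their knockdown values are the added constant, with no spread between them. Their test therefore cannot tell a fall from a list too short to hold a peak there. The strongest by moderated t lay between MTRR, an enzyme of methionine synthesis, and SEMA5A, an axon guidance gene (chr5:8401113-8535033). It is 1 of the 10. HP1a covered 2.02 and 1.52% of it in wild type with 7 and 5 peaks, against 0 and 0% in the knockdown, so it rests on few peaks. HP1b at that block covered 2.81 and 7.20% in wild type, against 6.17 and 6.50% in the HP1a knockdown, so the HP1b libraries overlapped there.

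CD83 to JARID2 (chr6:14636918-14746069), which was the second highest block of wild-type HP1a, came next. CD83 is a surface protein of mature dendritic cells. HP1a covered 5.93 and 4.93% in wild type, against 0.174 and 0.231% in the knockdown, and its relative density fell from 2.57 and 2.47 to 0.534 and 0.723 (log2 change -1.66, SE 0.248, adjusted p 0.014). The other two lay beside type II cadherins, a family of cell adhesion proteins. Between CDH18 and CDH12 (chr5:21075713-21250673) HP1a covered 2.06 and 4.13% in wild type with 10 and 14 peaks, against 0 and 0% in the knockdown. Between CDH9 and LOC124901178 (chr5:27538586-28425598) it covered 2.75 and 2.19%, then 0.0325 and 0.0297%, with 44 and 39 peaks in wild type, against 1 and 1 in the knockdown (log2 change -1.98, SE 0.335, adjusted p 0.020). In all 4 blocks the wild-type and knockdown libraries lay apart. CDH18 to CDH12, like MTRR to SEMA5A, is 1 of the 10 with no knockdown peak, so its separation and its rank carry the same limit. No fall was called when either wild-type library was left out. The 10 falls with no knockdown peak then had a peak in only 1 library and were not fitted, so they were not retested. The median log2 change over the desert blocks fitted was -0.52 and -0.38 without wild-type library 1 or 2, against -0.36 and -0.33 over all segments. It was -0.31 and -0.60 without knockdown library 1 or 2, against -0.31 and -0.31 over all segments. The number of calls changed widely with the library left out. With peaks of −log10 p 4 or more, 0 blocks passed in either direction (65 at an unadjusted p under 0.05).

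The largest of the 4 rises was CADM1 to BUD13 (chr11:116004415-116248173, 244 kb), where CADM1 encodes a cell adhesion molecule and BUD13 a splicing factor. HP1a covered 2.72 and 1.43% of it in wild type, against 3.26 and 3.44% in the knockdown, so this was the 1 block whose covered share itself was higher in both knockdown libraries. Its peaks numbered 14 and 9 in wild type, against 11 and 19 in the knockdown. Its relative density went from 1.18 and 0.716 to 9.99 and 10.8 (log2 change 3.17, SE 0.244, adjusted p 0.0053).

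SPDYE21 to AUTS2 (chr7:67789005-69098475, 1309 kb) had 166 and 175 HP1a peaks in wild type, against 78 and 85 in the knockdown. The covered share fell from 7.75 and 8.10% to 3.56 and 4.33%, far less than elsewhere, and the relative density went from 3.36 and 4.06 to 10.9 and 13.5 (log2 change 1.65, SE 0.212, adjusted p 0.011). The block is 0.428% of desert length. It held 3.37 and 3.50% of the desert bases of wild-type HP1a and 14.5 and 14.9% in the knockdown.

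LZTS1 to GFRA2 (chr8:20803963-21190398), between a leucine zipper tumour suppressor gene and the neurturin receptor gene, went from 2.95 and 2.19% to 1.55 and 2.35% covered. Its relative density went from 1.28 and 1.10 to 4.75 and 7.37 (log2 change 2.09, SE 0.260, adjusted p 0.010). PTPRU to MATN1 (chr1:29826800-30211277), between a receptor phosphatase gene and a cartilage matrix gene, went from 2.13 and 1.09% to 0.658 and 1.17% covered and from 0.925 and 0.548 to 2.02 and 3.68 in relative density (log2 change 1.61, SE 0.354, adjusted p 0.041). Covered shares overlapped between the groups in both. With no scaling the log2 change was -0.39, -0.99 and -0.73 for LZTS1 to GFRA2, SPDYE21 to AUTS2 and PTPRU to MATN1, so their rise is relative to the list. With 4 peaks in library 1 and 7 in library 2 of the knockdown, the PTPRU to MATN1 block rests on few peaks.

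The second comparison asks what became of HP1b in deserts when HP1a was knocked down. HP1b peaks in deserts numbered 13466.5 ± 415 in wild type, against 12148 ± 1117 in the knockdown (SD, n = 2 each), 1.11-fold fewer, with no overlap (exact permutation p 0.333). Outside the deserts there was a larger drop, from 78.0 ± 0.242 to 60.4 ± 15.7 peaks per Mb, and library 1 of the knockdown had a shorter list than library 2 (160082 and 226855 peaks). The covered share of deserts was 2.87 and 2.61% in wild type, against 2.50 and 2.72% in the knockdown, so these overlapped (exact permutation p 0.667). The deserts' part of the area's peak bases was 8.39 ± 0.391% and 9.60 ± 1.59% (exact permutation p 0.667). Of 221 blocks, 69 (31.2%) had a lower covered share in both knockdown libraries than in both wild-type libraries and 45 (20.4%) a higher share, against 44.7 and 14.6% of all 3109 segments.

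In relative density HP1b rose in 12 of 221 desert blocks (5.43%) and fell in 3 (1.36%). Among all segments 5.69% rose and 8.56% fell. The share of rises was near the background and the share of falls under it, again with no test of the difference. In fixed bins of 1 Mb, 7 of 178 desert bins rose and 3 fell, against 202 and 337 of all 2891. The median log2 change was 0.04 over desert blocks and -0.08 over all segments. Without wild-type library 1 or 2 fewer blocks passed, and the desert median was 0.07 and -0.01, against -0.07 and -0.11 over all segments. Without knockdown library 1 or 2 more blocks passed, and the desert median was -0.07 and 0.14, against -0.09 and -0.07 over all segments.

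CADM1 to BUD13 again stood highest. HP1b covered 4.60 and 10.2% of the block in wild type, against 39.0 and 44.9% in the HP1a knockdown, with 19 and 33 peaks against 67 and 74 (log2 change in relative density 2.47, SE 0.270, adjusted p 0.0015). LOC107984449 to TMEM132C (chr12:127658030-127767170) went from 7.54 and 7.73% to 20.7 and 26.3% (log2 change 1.57, SE 0.139, adjusted p 0.00068). Between SYNCRIP, an RNA-binding protein gene, and HTR1E, a serotonin receptor gene (chr6:86143870-86437528), it went from 4.26 and 4.61% to 7.65 and 10.4% (0.92, SE 0.144, adjusted p 0.0094). All 3 had a higher covered share in both knockdown libraries than in both wild-type libraries.

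The other rises included SPDYE21 to AUTS2, from 25.8 and 23.7% to 34.7 and 42.1% covered (log2 change 0.76, SE 0.159, adjusted p 0.023). LZTS1 to GFRA2 went from 12.6 and 8.78% to 15.3 and 19.4% (0.78, adjusted p 0.026), and PTPRU to MATN1 from 5.17 and 3.78% to 5.66 and 10.9% (0.76, adjusted p 0.034). A further 5 lay between TRIB2 and LRATD1, POTEA and LOC105375816, CHORDC1 and FAT3, KIRREL3 and ETS1, and TMEM132B and LOC107984449, with log2 changes from 0.67 to 0.86. POTEA to LOC105375816 is 1 of the 17 blocks with a peak-free stretch of 1 Mb or more. Without those 17 blocks 11 rises passed, all among the 12.

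The 3 falls lay on chromosomes 2 and 9. Between LRRTM4, a leucine-rich repeat gene of synapses, and REG3G, a gut lectin gene (chr2:78022376-78525702), HP1b covered 3.76 and 3.72% in wild type, against 1.01 and 1.55% in the knockdown (log2 change -0.76, SE 0.151, adjusted p 0.019). Between KLF4, a transcription factor gene, and ACTL7B, a testis actin-like gene (chr9:107989769-108354588), it went from 12.1 and 10.4% to 5.32 and 5.96% (-0.67, SE 0.156, adjusted p 0.030). Between HS6ST1 and RAB6C (chr2:128818868-129479666) it went from 12.7 and 10.3% to 5.23 and 7.66% (-0.56, SE 0.151, adjusted p 0.045). All 3 lay apart between the groups. The next by moderated t, between LOC102724652 and LOC102723553 on chromosome 21, did not pass (adjusted p 0.052).

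**Figure D4:**
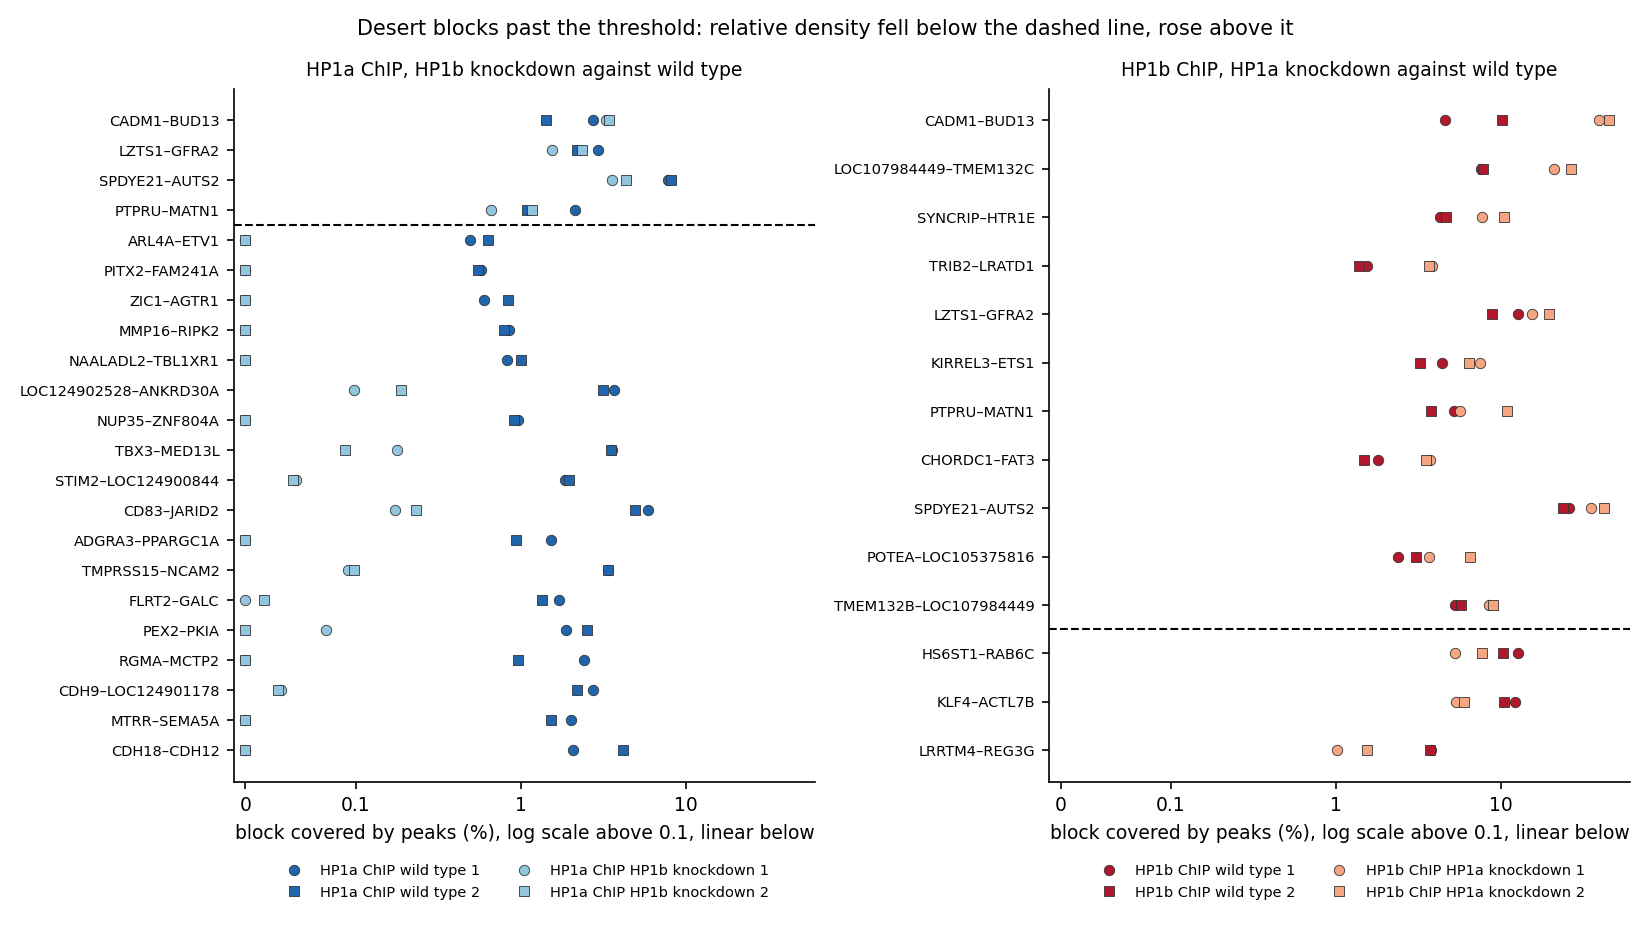
Percent of bases covered by peaks by library for all but 1 of the desert blocks called in a comparison of a knockdown with wild type, in the 4 libraries of that comparison (axis logarithmic above 0.1% and linear below). CADM1 to BUD13 stands at 39.0 and 44.9% for HP1b in the HP1a knockdown, and SPDYE21 to AUTS2 is high in both panels.

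All 4 blocks that rose for HP1a in the HP1b knockdown were among the 12 that rose for HP1b in the HP1a knockdown. They are 100% of the first list and 33.3% of the second, and the comparisons share no library. The same overlap over all segments is not given here, so the shared rises are not shown to be particular to deserts. Of the 12, 11 had an HP1a log2 change above 0, against 51 of the 215 desert blocks tested in both (23.7%). The 3 that fell for HP1b had an HP1a log2 change below 0, as 76.3% of the 215 did. Of the 18 blocks that fell for HP1a, 9 had an HP1b log2 change below 0, over a range from -1.22 to 0.55, near the 43.7% of the 215. Across the 215 blocks tested in both, Pearson's r of the changes was 0.543 and Spearman's rho 0.389, and without the 4 shared rises they were 0.431 and 0.354 (a description over blocks that share their libraries). The difference between the knockdown effects passed in 0 of 221 desert blocks by limma, in 54 at an unadjusted p under 0.05, and in 0.0645% of all 3100 segments. The median log2 difference of effects was 0.50 over the desert blocks and 0.19 over all segments. Without library 1 or 2 of HP1a in the HP1b knockdown it was 0.35 and 0.55 over the desert blocks, against 0.16 and 0.17 over all segments. More blocks and more segments passed in those 2 fits.

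The high ground of SPDYE21 to AUTS2 filled the whole interval between the genes and not only its desert part. HP1b in the HP1a knockdown covered 3.85% of the last 500 kb before the end of SPDYE21 (mean of 2 libraries), 39.9% of the 500 kb between that end and the block, 38.4% of the block, 42.4% of the 500 kb after it and 19.7% of the first 500 kb from the start of AUTS2. In wild type the HP1b means were 6.65, 25.0, 24.8, 28.4 and 15.8%, and the HP1a means 2.29, 8.20, 7.92, 9.85 and 3.47%. HP1a in the HP1b knockdown gave 0.320, 4.93, 3.94, 3.54 and 1.20%. The step at the SPDYE21 side was steep in all 4 groups. On the other side coverage fell at AUTS2 for both proteins. HP1b fell there from 28.4 to 15.8% in wild type and from 42.4 to 19.7% in the HP1a knockdown. HP1a fell from 9.85 to 3.47% in wild type and from 3.54 to 1.20% in the HP1b knockdown. In all 4 groups the first 500 kb of AUTS2 stayed more covered than the last 500 kb before the end of SPDYE21.

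CADM1 to BUD13 had its high ground in the block and on the CADM1 side. HP1b in the HP1a knockdown covered 2.96% of the 500 kb on the far side of the gene end, 35.6% between CADM1 and the block, 41.9% of the block, 11.5% between the block and BUD13 and 1.95% beyond. In wild type the HP1b means were 1.89, 7.49, 7.39, 4.16 and 3.18%. For HP1a they were 0.630, 2.12, 2.07, 1.73 and 1.12% in wild type, against 0.0717, 2.69, 3.35, 0.776 and 0.439% in the HP1b knockdown. LZTS1 to GFRA2 was likewise higher on one side: with HP1a knocked down HP1b covered 18.6% between LZTS1 and the block, 17.3% of the block and 6.38% between the block and GFRA2. The 2 windows of 100 kb wholly inside this block went opposite ways. On the LZTS1 side mean HP1b coverage went from 12.5 to 28.7% in the HP1a knockdown, and on the GFRA2 side from 10.9 to 5.12%. In the HP1b knockdown mean HP1a coverage went from 1.38 to 3.54% and from 2.78 to 0%, in the same order.

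**Figure D5:**
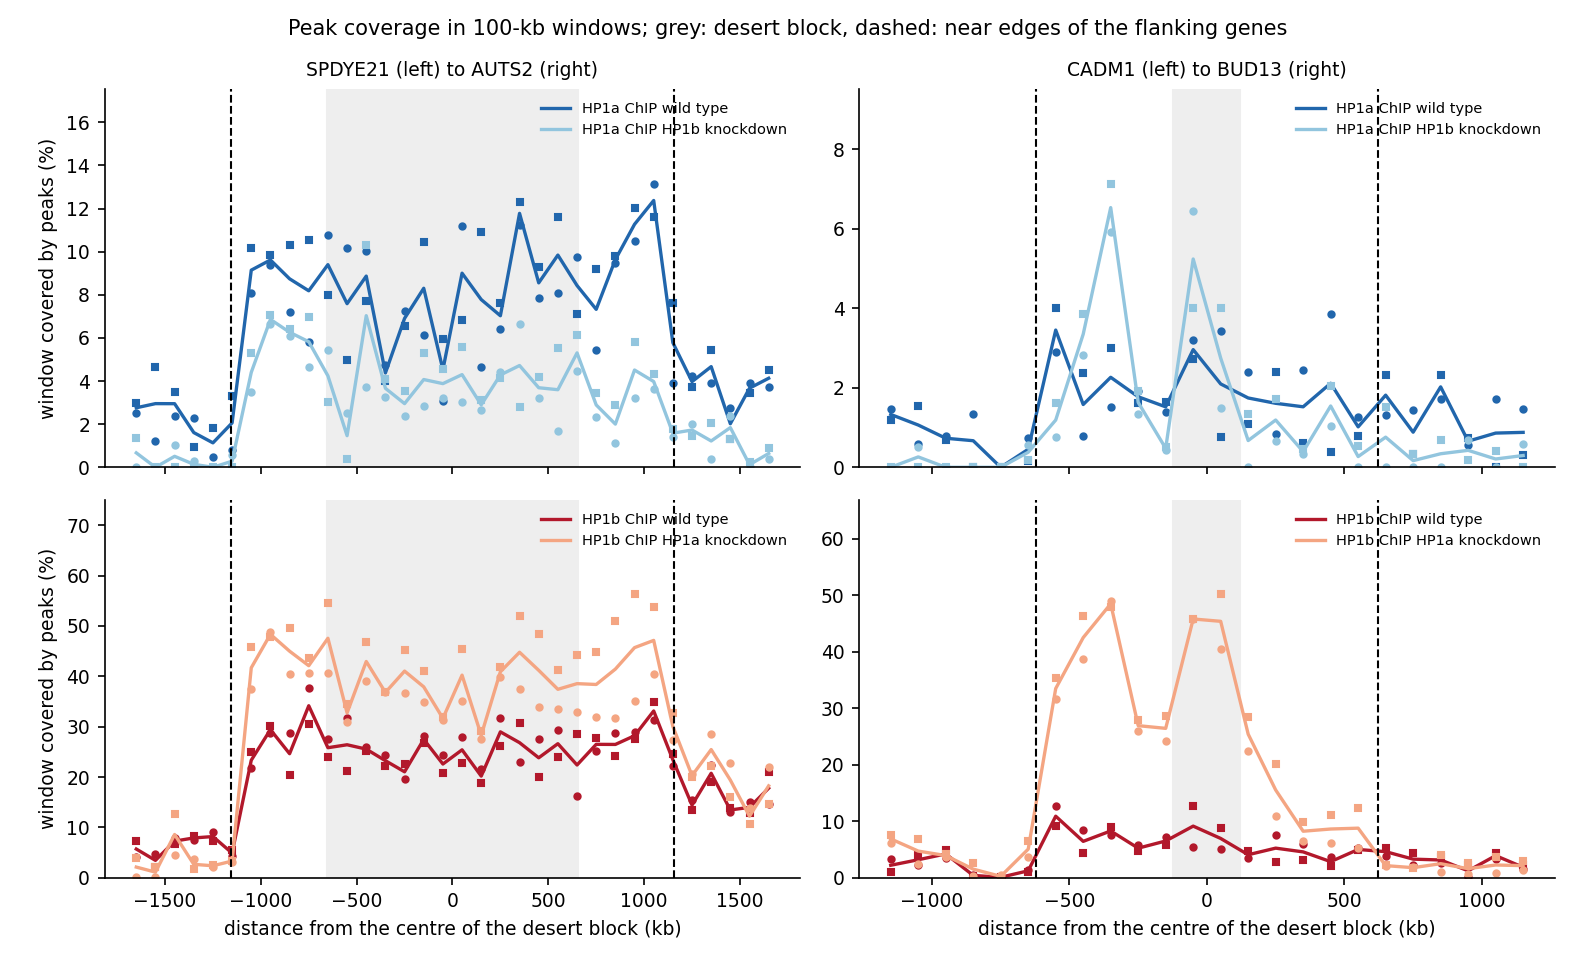
Percent of bases covered in 100-kb windows around the centres of the blocks SPDYE21 to AUTS2 and CADM1 to BUD13, against distance from the centre in kb, with lines for group means and points for single libraries. In the first the high ground spans the interval between the genes, whose edges are 1155 kb from the centre, and in the second it is high for HP1b in the HP1a knockdown and low in wild type.

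With SPDYE21 to AUTS2 left out, the 10 other desert blocks of chromosome 7 had relative densities of 0.250 and 0.307 for HP1a in the HP1b knockdown, against 2.09 and 2.60 for all 11. For HP1b in the HP1a knockdown the values were 0.435 and 0.364 without it and 1.90 and 1.64 with it. The high relative density of the deserts of chromosome 7 in the knockdowns thus rested on 1 block. Chromosome 8 was the only other chromosome whose deserts had a mean relative density above 1 for HP1a in the HP1b knockdown (0.837 and 1.24).

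The third comparison sets HP1b against HP1a in wild type and shares a group with each of the others. HP1b had 2.06-fold more desert peaks than HP1a (13466.5 ± 415 against 6524.5 ± 235, SD, n = 2 each) and 2.78-fold more desert bases, with no overlap (exact permutation p 0.333). In the rest of the area the covered share was 2.55-fold higher. The covered share was higher in both HP1b libraries than in both HP1a libraries in 209 of 221 blocks (94.6%, against 97.1% of all 3101 segments) and lower in 0 (against 0.0645%). In relative density 3 blocks (1.36%) were higher for HP1b and 0 lower by limma, with 32 at an unadjusted p under 0.05 in either direction. Among all segments 1.26% were higher and 2.77% lower, so the desert share of higher blocks was at the background. The median log2 difference was 0.12 over desert blocks and 0.06 over all segments. Without HP1a library 1 or 2 it was 0.05 and 0.17 over desert blocks, and without HP1b library 1 or 2 it was 0.07 and 0.18. The number of blocks that passed changed with the library left out.

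HP1a covered at most 1.61% of each of the 3 blocks. Between STXBP6 and NOVA1, a neuronal splicing regulator gene (chr14:25550147-25943090), HP1a covered 1.12 and 1.61% and HP1b 11.8 and 9.44% (log2 difference in relative density 1.26, SE 0.179, adjusted p 0.019). Between NXPH2 and LRP1B, a very large receptor gene (chr2:139280390-139731423), HP1a covered 0.456 and 0.915% and HP1b 7.02 and 5.22% (1.17, SE 0.215, adjusted p 0.036). Between OLFM4 and LOC124903233 (chr13:53552057-54440093) it was 1.30 and 1.40% against 6.01 and 6.47% (0.65, SE 0.148, adjusted p 0.049). The next by moderated t, RNF144A to ID2 on chromosome 2, did not pass (adjusted p 0.056). At the other end, none passed: CDH18 to CDH12 gave -1.01 (adjusted p 0.080), and LOC124900192 to DTWD2, ZIC1 to AGTR1 and SLC4A3 to EPHA4 gave -0.42, -0.45 and -0.31.

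In none of 3 families of genes at the edges of deserts did more than 2 blocks pass. Cadherins and protocadherins, among them CDH2, CDH9, PCDH7 and PCDH10, flanked 15 of the 237 blocks. In the HP1b knockdown HP1a fell in 2 of the 14 tested, both named above, and rose in 0, against falls in 8.37% and rises in 1.86% of all desert blocks tested, with a median log2 change of -0.82 against -0.50 over all blocks. In the HP1a knockdown HP1b rose in 0 and fell in 0 of 14 (median 0.02 against 0.05). Synaptic adhesion and leucine-rich repeat genes, among them LSAMP and SLITRK1, flanked 22 blocks. HP1a fell in 1 of 19, FLRT2 to GALC, and rose in 0 (median -0.63), and HP1b fell in 1 of 20, the LRRTM4 block, and rose in 0 (0.06). Developmental transcription factor genes, among them SOX2, ZIC1, TBX3 and MEIS1, flanked 22 blocks. HP1a fell in 2 of 17, the ZIC1 and TBX3 blocks, and rose in 0 (median -0.38), and HP1b changed in 0 of 18 (-0.01). For HP1b against HP1a in wild type no block of the 3 families passed. Among the HP1a falls named here, CDH18 to CDH12 and the ZIC1 block had no peak in either knockdown library, so the limit given above holds for them. With so few blocks the counts of the families are near the shares over all desert blocks and show nothing particular to a family.

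The wild-type relative density of the families lay close to that of all 237 blocks, which was 0.731 ± 0.0779 for HP1a and 0.830 ± 0.0534 for HP1b (SD, n = 2). Cadherin blocks stood at 0.788 ± 0.0251 and 0.932 ± 0.0537, synaptic adhesion blocks at 0.713 ± 0.0822 and 0.750 ± 0.0489, and developmental transcription factor blocks at 0.656 ± 0.0521 and 0.772 ± 0.0881. In the knockdowns all blocks stood at 0.547 ± 0.0786 for HP1a and 0.891 ± 0.160 for HP1b. Without SPDYE21 to AUTS2 the other 236 stood at 0.465 ± 0.0660 and 0.838 ± 0.155. Cadherin blocks stood at 0.375 ± 0.158 and 0.938 ± 0.174, synaptic adhesion blocks at 0.372 ± 0.152 and 0.810 ± 0.152, and developmental transcription factor blocks at 0.475 ± 0.0456 and 0.740 ± 0.0859.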

How the data were processed

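Broad peak lists of 8 ChIP-seq libraries (HP1a and HP1b in MCF10A cells, 4 groups of 2) were used. Per the submitters' processing notes the authors worked with Trimmomatic, Bowtie2, SAMtools and MACS3 on build hg38. Not given in the sources used here are versions, settings and any input library. For each peak the deposited lists give a score, its fold enrichment over background (a ratio), and its −log10 p and −log10 q, each computed by the authors' caller. The deposited files hold no read counts, so depth is unknown and no counting interval could be set.

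Deserts were cut from the gene bounds of RefSeq GRCh38.p14. Peaks wholly inside them were counted, and overlapping peaks of a list merged for bases. Blocks of 100 kb or longer, and the rest of chromosomes 1 to 22 and X in tiles of 1 Mb, were fitted with limma 3.58.1 (R 4.3.3, variance trend) on log2 of relative density plus a constant, the 10th percentile of all values over 0. A segment needed a peak in 2 of the 4 libraries (4 of 8 for the difference of effects), and p-values were adjusted over all segments by Benjamini-Hochberg. Single values were compared by exact two-sided permutation, whose smallest p is 0.333 for 2 against 2. The fitting code was tested on simulated data.

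The members and lists were chosen with earlier results of these data known. Named blocks are the 5 longest, the 5 densest in wild type for each protein, and the 4 strongest falls and rises by moderated t in each comparison. Alternatives took out the scaling or the filter, multiplied the added constant by 4, fitted all libraries together, added a replicate block, used fixed bins, a −log10 p of at least 4, equal numbers of top peaks or distances of 250 kb and 1 Mb, or left out libraries or blocks. The run without SPDYE21 to AUTS2 and the crossed block were chosen after seeing the data. Results at 2 loci are not reported here.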

Additional observations from a re-analysis of the deposited data

Results flagged for a closer look

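The deserts' share of the area's peaks moved in opposite directions in the knockdowns, which called for a closer look. For HP1a it was 7.94 and 8.61% in wild type, against 6.57 and 7.56% in the HP1b knockdown, a mean difference of -1.21 percentage points. For HP1b it was 8.66 and 8.36% in wild type, against 11.04 and 8.88% in the HP1a knockdown, a mean difference of 1.45 points. That value rests on library 1 of the knockdown, the shorter list: without it the difference was 0.37 points, and without library 2 it was 2.53. Without a library of HP1a in the HP1b knockdown the HP1a difference was -0.71 (library 1) and -1.71 (library 2). The libraries did not overlap in either comparison, and the effects differed by 2.66 points (exact permutation p 0.0556, the smallest this design allows, so it could not pass 0.05). Measured in peak bases the difference was 2.11 points (exact permutation p 0.222). Without SPDYE21 to AUTS2 it was 3.09 points of peaks. With peaks of −log10 p 4 or more it was 1.97 points (exact permutation p 0.333), and the HP1b effect was then -0.91.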

How the results depend on the processing

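The deserts' lower coverage kept its direction under all alternatives run, as did the fall in HP1a peak number. With −log10 p 4 or more, the change in HP1b's desert share of bases was -1.91 points (1.21 with all peaks). The log2 change in HP1b peak number, -0.15 with all peaks, was 0.28 there and 0.11 with equal numbers of top peaks.

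Counts of HP1a blocks lower and higher in the HP1b knockdown, 18 and 4, were 193 and 0 with no scaling, 13 and 2 with no filter, 54 and 11 with all 8 libraries in a single fit, 14 and 1 in fixed bins, 0 and 0 with −log10 p 4 or more (65 blocks at an unadjusted p under 0.05), 7 and 3 with equal top peaks, 10 and 1 at 1 Mb, 32 and 12 at 250 kb, and 0 to 102 and 3 to 27 with a library left out. Counts of HP1b blocks in the HP1a knockdown, 3 and 12, were 0 and 2 with no scaling, 1 and 2 with no filter, 0 and 2 in the single fit, 3 and 7 in bins, 1 and 6 with −log10 p 4 or more, 6 and 21 with top peaks, 1 and 1 at 1 Mb, 4 and 23 at 250 kb, and 0 to 16 and 3 to 38 with a library left out. For HP1b against HP1a, 0 and 3, they were 0 and 198 with no scaling, 0 and 0 with no filter, in the single fit and at 250 kb, 0 and 5 in bins, 0 and 8 with top peaks, 0 and 6 at 1 Mb, and 0 to 8 and 1 to 23 with a library left out. The difference of effects, 0, gave 178 with no scaling, 2 at 1 Mb, 10 at 250 kb and 0 to 77 with a library left out. A fit without 1 library leaves a group with 1, which is assumed to vary like the others. In most of these fits the calls over all segments shifted in number as well. Over all 3074 segments the HP1a calls lower and higher, 178 and 180, were 2880 and 3 with no scaling and 699 and 332 in the single fit. The cause of these shifts was not tested, except that other distances change which blocks there are.

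With a replicate block the counts were 28 and 9, 10 and 27, 0 and 1, and 0 for the difference. Same-numbered libraries are not said to be paired, and their deviations correlated at 0.02, 0.26 and -0.19 in the 3 comparisons. With the numbers crossed in the third, the replicate block gave 1 and 19.

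Of 454 values of 40 named block results under alternatives, 306 stayed on their side of the threshold, 142 lost it and 6 reversed. Those were CD83 to JARID2 for HP1a with top peaks (0.75), PTPRU to MATN1 (-0.73), SPDYE21 to AUTS2 (-0.99) and LZTS1 to GFRA2 (-0.39) for HP1a with no scaling, and KLF4 to ACTL7B (1.00) and LOC107984449 to TMEM132C (-0.045) for HP1b with −log10 p 4 or more. Alternatives in which a block had too few peaks to be fitted are not among the 454 values.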
